A study of Mus musculus with 4 samples.

Results

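The cytochrome P450 (Cyp) genes of the mouse were examined in intestinal RNA. Members were all genes whose symbol on the mm9 assembly is Cyp followed by a digit. Of 103 such genes in the GENCODE M1 annotation, 99 had exon blocks in the reference of RefSeq exons used by the authors, out of 21007 genes with blocks, and 4 had none. The 99 members fell into 40 subfamilies and held 971 exon blocks, and 97 of them were annotated as protein coding.

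Cytochromes P450 are haem enzymes that insert an oxygen atom into a substrate. Families 1, 2 and 3 act mainly on foreign compounds and on arachidonic acid, family 4 hydroxylates fatty acids, and further families make or degrade sterols, bile acids, steroid hormones, vitamin D and retinoic acid. Most forms lie in the endoplasmic reticulum and take electrons from the reductase Por. In the gut they metabolise ingested compounds before these reach the liver.

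RNA came from whole small intestine and whole colon of C57BL/6 mice aged 9 to 10 weeks, without treatment. From each tissue 1 library was made by SMART cDNA synthesis from polyadenylated RNA (cDNA fragmented), and 1 library with the SOLiD Whole Transcriptome Analysis Kit from RNA labelled as ribosomal RNA-depleted (rRNA-depleted). The study describes its small intestine as jejunum and its colon as distal colon, and says that the tissues came from the same individuals. Which of its mice gave which library is not given in the sources used here. Each tissue and protocol had 1 library, so tissues were compared without a test. All intervals are 95% intervals that cover counting error only, with reads taken as independent. In whole tissue, more cells of a type and more RNA per cell cannot be told apart.

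The cDNA fragmented libraries held 22484041 uniquely placed reads from small intestine and 24798934 from colon, the rRNA-depleted ones 2035386 and 3478387, so the values of the latter are less precise. Tissue labels were checked with marker genes. All 8 enterocyte markers were at least 3-fold higher in small intestine by both protocols, and all 6 colon epithelium markers found of 7 were higher in colon. Ratios between tissues differed by protocol: Lct had 3822 and 119, Fabp1 2825 and 114, and Aqp8 11863 and 224 (cDNA fragmented first). Alpi, Apob, Slc26a3 and Car4 had larger ratios in the rRNA-depleted libraries. Car1 had no read in small intestine by cDNA fragmentation but 68 in the rRNA-depleted library. Counting error does not cover such differences between protocols, and their source was not tested. All 7 pancreatic acinar markers were called higher in colon by cDNA fragmentation and 6 of them higher in small intestine in the rRNA-depleted libraries: their summed RPKM was 18.8 in small intestine and 1052 in colon by cDNA fragmentation, and 3079 in small intestine and 298 in colon in the rRNA-depleted libraries. Cela1, the marker not called in the latter, made up 18.3 of the 18.8 and 291 of the 298. Smooth muscle markers were higher in both colon libraries, with a summed RPKM of 746 against 202 by cDNA fragmentation and 1419 against 171 in the rRNA-depleted ones.

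Cytochromes P450 carry a short stretch in which a cysteine binds the haem iron. In the coding sequence it was found once in 88 of 98 Cyp genes with a coding transcript, as 72 different stretches of 30 bases. These 98 include Cyp2d37-ps, which had no exon blocks and is not a member. The stretches below are shown for members with high levels or large differences between the tissues and for some of their relatives, because a read of 35 bases can be assigned to one of 2 relatives only where their bases differ. They were read from mm9, 5′ to 3′ on the coding strand, and capitals mark the cysteine codon.
Cyp2c55: ttctcaataggaaagcgaatgTGCgtggga
Cyp2c65: ttctcaacaggaaaacggattTGTgtggga
Cyp2c66: ttctcaacaggaaaacggattTGTgtggga
Cyp2c29: ttttcaacaggaaaacggattTGTgctgga
Cyp3a13: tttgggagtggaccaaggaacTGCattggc
Cyp3a11: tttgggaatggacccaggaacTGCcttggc
Cyp3a41a: tttggaattggacccaggaacTGCattggc
Cyp3a25: tttggaaatggacccaggaacTGCataggc
Cyp2d34: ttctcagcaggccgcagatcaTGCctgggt
Cyp2d10: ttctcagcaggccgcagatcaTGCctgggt
Cyp2d11: ttctcagcaggacacagatcaTGCctgggg
Cyp2d12: ttttcagcaggccgcagatcaTGCctgggg
Cyp2d26: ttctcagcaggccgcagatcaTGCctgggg
Cyp4v3: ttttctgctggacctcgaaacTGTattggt
The Cyp3a stretches lie in 1 exon, that of Cyp3a11 at chr5:146670381-146670410 and that of Cyp3a13 at chr5:138336495-138336524, both on the minus strand. The Cyp2c and Cyp2d stretches are split over 2 exons. That of Cyp2c55 joins chr19:39112722-39112731 to chr19:39116507-39116526 on the plus strand, and that of Cyp2d34 joins chr15:82446743-82446752 to chr15:82446623-82446642 on the minus strand. Cyp2c65 and Cyp2c66 do not differ here, nor do Cyp2d34 and Cyp2d10. Between Cyp2c55 and Cyp2c65 5 bases differ (T8C, G15A, A18G, G21T and C24T, counted from 1 at the 5′ end, the base of Cyp2c55 first). Between Cyp3a11 and Cyp3a41a 3 bases differ (G6A, A8T and C25A), and between Cyp2d26 and Cyp2d34 1 base differs (G30T).

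A gene was called present above 0.01 RPKM (reads per kilobase of exon blocks and per 1000000 uniquely placed reads) with at least 2 different start points. By cDNA fragmentation 61 members were present in small intestine and 58 in colon, and 49 in both. These were 61.6% and 58.6% of the members, against 74.1% and 77.1% of all genes. In the rRNA-depleted libraries 41 and 47 were present, and 36 in both. These were 41.4% and 47.5% of the members, against 64.6% and 70.1% of all genes. Presence in both tissues was not counted over all genes. No read fell on 17 members in any library, among them Cyp2a4, Cyp2a5 and Cyp2a22, the retinoic acid hydroxylases Cyp26a1 and Cyp26c1, and the brain cholesterol hydroxylase Cyp46a1. Of these 17, 8 had at least 50% of 35-base windows with a near copy, Cyp2a4 and Cyp2a5 88.6% each, so that a lack of unique reads does not show a lack of their RNA.

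Few members made up most of the Cyp RNA, and the member with the highest level differed between the tissues. The summed RPKM of all members was 2130 in small intestine and 3903 in colon by cDNA fragmentation, and 1821 and 2526 in the rRNA-depleted libraries. Cyp2c55, an arachidonic and linoleic acid epoxygenase and hydroxylase, made up 83.6% of the colon sum by cDNA fragmentation and 80.3% in the rRNA-depleted library. In small intestine Cyp3a13 had the highest level and made up 36.1% and 21.7%, and it was also among the 3 highest members in both colon libraries. By subfamily, Cyp3a held 48.9% and 32.4% of the small intestine sum, Cyp4v 16.7% and 16.6%, and Cyp4f 10.2% and 20.05%. In colon these subfamilies held 3.22% and 2.20%, 0.118% and 0.373%, and 1.43% and 3.28%, while Cyp2c held 85.3% and 83.04%. All these shares were taken over whole blocks, which lowers members with near copies. Over windows without a near copy, small intestine had 885 and 465 RPKM for Cyp3a13 and 568 and 360 for Cyp3a11. These values are per window start, which also raises genes without copies.

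**Figure D1:**
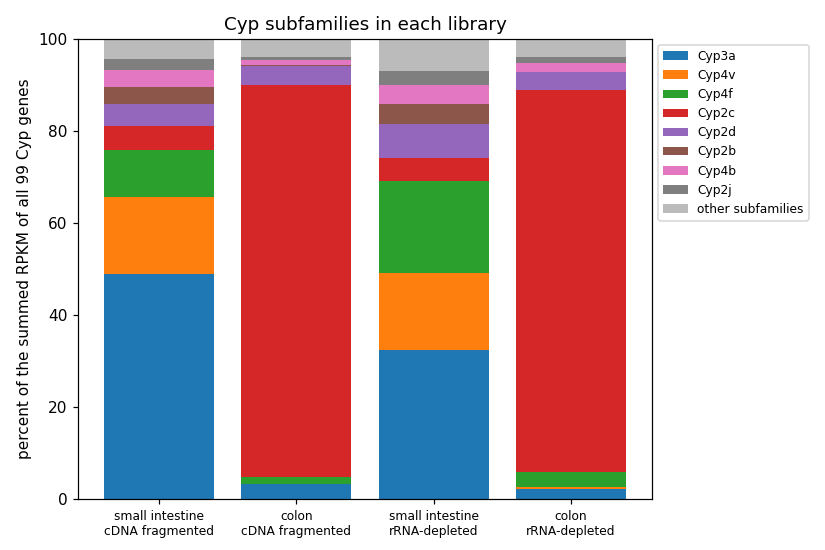
Share of each Cyp subfamily in the summed RPKM of all 99 members, in percent, with 1 stacked bar per library. Cyp2c fills 85.3% and 83.04% of the colon bars, and Cyp3a, Cyp4v and Cyp4f together fill most of the small intestine bars.

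For the comparison of tissues, the rule of the study for a difference was used: the level in one tissue was divided by the level in the other plus 1, here in RPKM, and a ratio of at least 3 was called. By cDNA fragmentation, 9 of 70 members present in at least 1 tissue (12.9%) were called higher in small intestine, against 2.72% of all genes, and 7 (10.0%) were called higher in colon, against 3.2% of all genes. In the rRNA-depleted libraries, 10 of 52 members (19.2%) were called higher in small intestine, against 3.73% of all genes, and 5 (9.62%) were called higher in colon, against 6.59% of all genes. In total 19 members were called by at least 1 protocol, and 15 of these belong to families 2 and 3, which hold 58 of the 99 members. Both protocols called 8 members higher in small intestine and 4 higher in colon, and none was called in opposite directions. These overlaps were not counted over all genes, so they do not set the members apart. Where a pair of values is given for a gene below, small intestine comes first and colon second, and the cDNA fragmented libraries come before the rRNA-depleted ones.

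Over all genes tested, the median log2 ratio (colon over small intestine, 0.1 RPKM added to each) was 0.36 by cDNA fragmentation and 0.42 in the rRNA-depleted libraries. Median-of-ratios size factors moved the ratios down by 0.36 and 0.28. The median of the members was −0.28 and −0.04, below that of all genes in both protocols, and 39 of 70 and 26 of 52 members were higher in small intestine, against 33.5% and 35.7% of all genes.

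**Figure D2:**
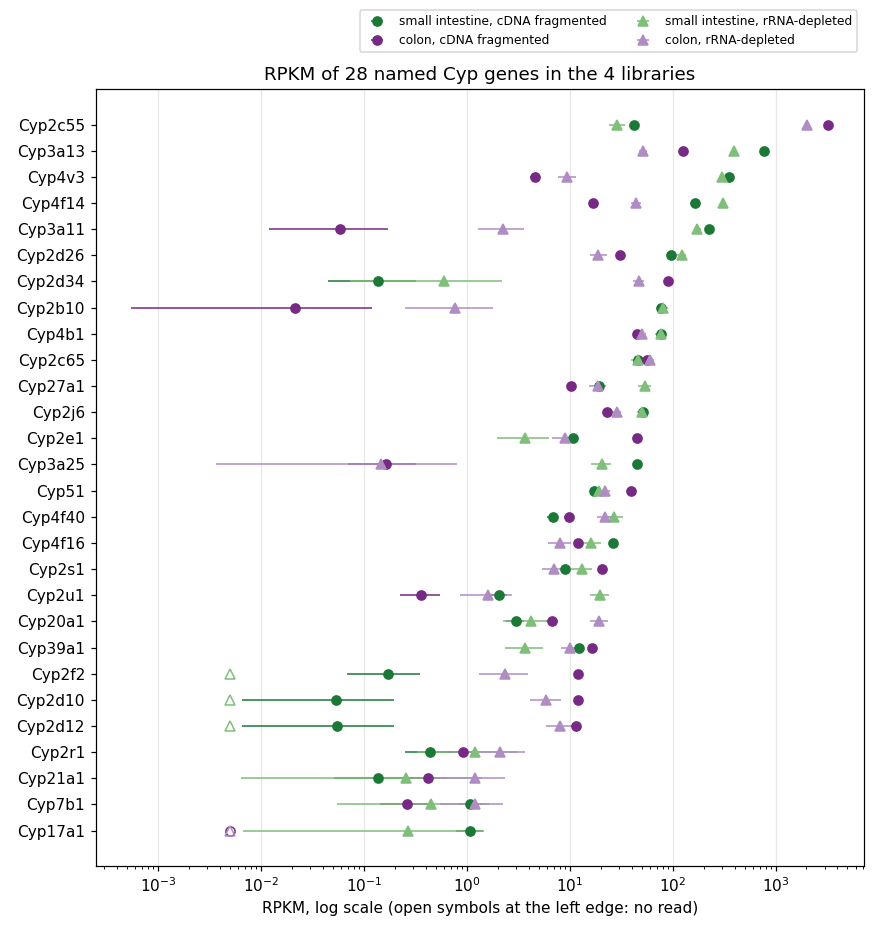
RPKM on a log axis of the 28 members named by rule, with 1 symbol per library (circles cDNA fragmented, triangles rRNA-depleted, green small intestine, purple colon) and bars for 95% exact Poisson intervals. For Cyp2c55 and Cyp2d34 the colon symbols lie far to the right of the small intestine symbols. For Cyp4v3, Cyp3a11 and Cyp2b10 they lie far to the left of them.

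The Cyp2c genes lie on chromosome 19, Cyp2c44 apart from the others, and the first in their order had the highest level of all members. Cyp2c55 (chr19:39081509-39117177, plus strand, 9 exon blocks) had 42.5 RPKM in small intestine against 3264 in colon by cDNA fragmentation, and 29.1 and 2028 in the rRNA-depleted libraries. The colon was 76.9-fold higher (73.5 to 80.5) by cDNA fragmentation and 69.6-fold higher (58.1 to 84.1) in the rRNA-depleted libraries. Both colon libraries lay above both small intestine libraries, and every one of the 9 blocks was higher in colon by both protocols. The block ratios ran from 59.0 to 93.5 with cDNA fragmentation and from 41.8 to 824 in the rRNA-depleted libraries. Counted by different start points in place of reads, the log2 ratio (0.1 RPKM added) fell from 6.26 to 1.22 by cDNA fragmentation, which ended the call, and from 6.12 to 2.90 in the rRNA-depleted libraries, where the call was kept. Start points are limited by the length of a gene, and in colon 3127 of 3978 possible ones on both strands (78.6%) were in use by cDNA fragmentation, against 1282 (32.2%) in small intestine.

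Its neighbour Cyp2c65 was close to even, with 45.9 RPKM in small intestine and 56.8 in colon by cDNA fragmentation, and 46.1 and 60.3 in the rRNA-depleted libraries. The colon ratio was 1.24 and 1.31, and with median-of-ratios size factors the log2 ratio by cDNA fragmentation turned from 0.31 to −0.05. Cyp2c66, of 96.3% coding identity with Cyp2c65, went the other way, with 6.00 RPKM in small intestine and 0.742 in colon by cDNA fragmentation (8.09-fold, 5.51 to 12.3), and 6.33 and 1.59 in the rRNA-depleted libraries. Cyp2c29, also a drug and fatty acid metabolising form, was called only in the rRNA-depleted libraries, where 16 reads fell on it in small intestine and none in colon (at least 9.11-fold, against a limit of 3 reads, lower end of the interval 6.59), while by cDNA fragmentation it had 77 and 2 reads. This call ended with at most 1 color mismatch and with a minimum of 20 reads, and that of Cyp2c66 with at most 1 color mismatch. By cDNA fragmentation Cyp2c29 was called higher in small intestine with start points and with 0.1 in place of 1 RPKM added. Cyp2c66 and Cyp2c29 were named after their values were seen, because they were called.

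**Figure D3:**
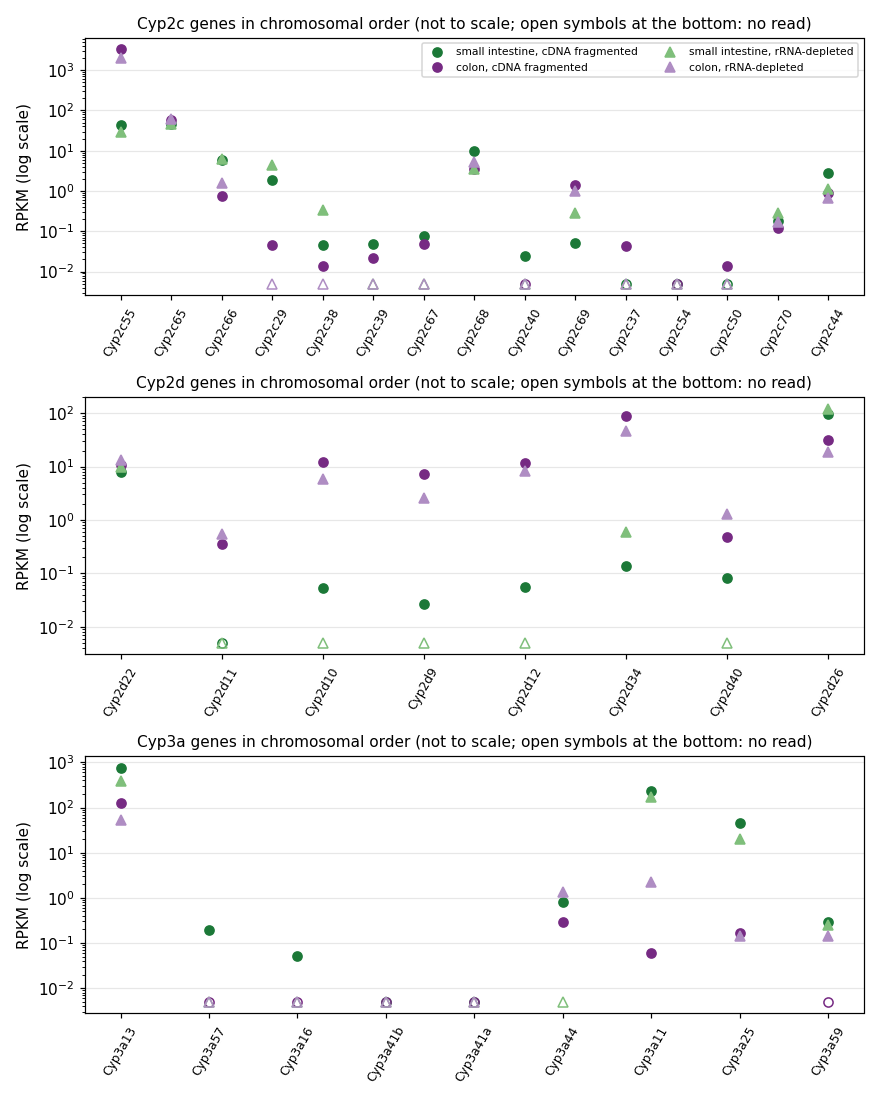
RPKM on a log axis of the Cyp2c, Cyp2d and Cyp3a genes in the order of their positions on chromosomes 19, 15 and 5, not to scale, with 1 symbol per library and open symbols for no read. Cyp2c55 stands above its neighbours in colon. Cyp2d34, Cyp2d10, Cyp2d9 and Cyp2d12 are higher in colon than in small intestine, and Cyp2d26 is higher in small intestine. Cyp3a13, Cyp3a11 and Cyp3a25 carry most of the Cyp3a reads.

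The Cyp2d genes of chromosome 15, relatives of the human debrisoquine hydroxylase, included calls in both directions. Of 8 genes, 1 was called higher in small intestine by each protocol, and 4 by cDNA fragmentation and 3 in the rRNA-depleted libraries higher in colon. The shares of all genes so called were 2.72% and 3.73% for small intestine and 3.2% and 6.59% for colon. Cyp2d22, which was not called, had 7.95 and 10.7 RPKM, and 9.75 and 13.1, and Cyp2d11 and Cyp2d40 had at most 14 reads in any library. Cyp2d34 (chr15:82446395-82451337, minus strand) had 0.137 RPKM in small intestine (5 reads) and 90.2 in colon (3627 reads) by cDNA fragmentation, and 0.606 (2 reads) and 46.8 (264 reads) in the rRNA-depleted libraries. The colon was 658-fold higher (282 to 2027) and 77.2-fold higher (21.2 to 641). Cyp2d10 had 0.0540 and 12.1 RPKM by cDNA fragmentation (223-fold, 61.5 to 1851) and no read and 5.93 RPKM in the rRNA-depleted libraries (at least 6.63-fold higher in colon against 3 reads, lower end of the interval 5.11). Cyp2d12 had 0.0548 and 11.4 RPKM (209-fold, 57.5 to 1731), and no read and 8.14 RPKM (at least 8.97-fold, lower end 7.01).

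Cyp2d9, named because it was called by cDNA fragmentation, had 1 read in small intestine and 293 reads (7.16 RPKM) in colon, and no read and 15 reads in the rRNA-depleted libraries. In the latter it was called higher in colon with start points, with a penalty of 0.1 RPKM and over windows without a copy. Cyp2d26 (chr15:82620537-82624675, minus strand) lay on the other side, with 97.5 RPKM in small intestine and 30.9 in colon by cDNA fragmentation, and 122 and 19.0 in the rRNA-depleted libraries. The small intestine was 3.15-fold higher (2.96 to 3.37) and 6.43-fold higher (5.19 to 8.01). By start points the log2 ratio of Cyp2d26 by cDNA fragmentation was −0.85 in place of −1.65, which ended the call. All 9 blocks of Cyp2d26 were higher in small intestine, and all 9 blocks of Cyp2d34 higher in colon, by cDNA fragmentation.

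Of the Cyp3a genes, the main drug-oxidising subfamily of liver and gut, 3 were called higher in small intestine by each protocol, of 7 present by cDNA fragmentation and 4 in the rRNA-depleted libraries, against 2.72% and 3.73% of all genes. None was called higher in colon, against 3.2% and 6.59% of all genes, so that count of 0 does not set them apart. Cyp3a44 (0 and 9 reads) was called higher in colon in the rRNA-depleted libraries only with start points, with a penalty of 0.1 RPKM or over windows without a copy. Cyp3a13 (chr5:138334161-138362847, minus strand) had 768 RPKM in small intestine against 125 in colon by cDNA fragmentation, and 395 and 51.7 in the rRNA-depleted libraries. The small intestine was 6.14-fold (6.01 to 6.28) and 7.64-fold (6.95 to 8.41) higher, in 13 of 13 blocks and in 12 of 12 blocks with at least 20 reads. By start points the log2 ratio was −0.67 in place of −2.62 by cDNA fragmentation, which ended the call, with 76.9% of possible start points in use in small intestine and 50.6% in colon. Counted over whole blocks, Cyp3a13 was the only Cyp3a gene with more than 3 RPKM in colon, and over windows without a near copy Cyp3a11 (5.96 RPKM) and Cyp3a44 (3.46 RPKM) also passed this level in the rRNA-depleted library.

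Cyp3a11 (chr5:146666183-146691430, minus strand) had 228 RPKM in small intestine against 0.0589 in colon by cDNA fragmentation, from 10516 and 3 reads, and 174 and 2.24 RPKM in the rRNA-depleted libraries, from 728 and 16 reads. The ratio was 3866 (1323 to 18751) by cDNA fragmentation and 77.8 (47.6 to 137) in the rRNA-depleted libraries. These intervals did not overlap, as for the markers Lct, Fabp1 and Aqp8, and the difference between protocols was not tested. Cyp3a25 had 45.1 and 0.164 RPKM by cDNA fragmentation (276-fold, 140 to 639) and 20.5 and 0.146 RPKM in the rRNA-depleted libraries. The order Cyp3a13, Cyp3a11, Cyp3a25 was the same in both small intestine libraries, and counting intervals of neighbours in it did not overlap.

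Liver genes were checked beside these values, since Cyp3a11 and several Cyp2c and Cyp2d genes are known from hepatocytes. Of 9 hepatocyte markers, 3 were called higher in colon and none in small intestine by cDNA fragmentation, and 2 and none in the rRNA-depleted libraries. Their summed RPKM was 10.3 in small intestine and 107 in colon by cDNA fragmentation, and 2.82 and 29.4 in the rRNA-depleted libraries. The defining marker albumin (Alb) had 2 and 17 reads by cDNA fragmentation, and 0 and 3 reads in the rRNA-depleted libraries, and Fgb had none in any library. Between 2 and 5 of the 9 markers had no read in a library. Most of the colon sum came from transthyretin (Ttr, 68.5 RPKM) and Tat (23.9 RPKM).

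Cyp2b10, the classical target of phenobarbital, had 77.0 RPKM in small intestine, from 3241 reads, and 1 read in colon by cDNA fragmentation, and 80.8 and 0.768 RPKM in the rRNA-depleted libraries. The small intestine was 3575-fold higher (641 to 141235) and 105-fold higher (44.6 to 327). These intervals did not overlap, and the difference between protocols was not tested. The remaining 4 Cyp2b genes had at most 3 reads in any library. Cyp1a1, a target of the Ah receptor that was named because it was called, had 11.1 and 0.420 RPKM by cDNA fragmentation (26.4-fold, 18.2 to 39.7) and 4.41 and 0.310 RPKM in the rRNA-depleted libraries (14.2-fold, 4.35 to 73.7). It was the member of family 1 called, of 3 present by cDNA fragmentation and 2 in the rRNA-depleted libraries. Of all genes, 2.72% and 3.73% were so called. Cyp1b1 had 176 and 9 reads by cDNA fragmentation and 17 and 10 reads in the rRNA-depleted libraries. The ratio of 21.6 by cDNA fragmentation, from 1.53 and 0.0708 RPKM, was not called with 1 RPKM added, and that of 2.91 in the rRNA-depleted libraries lay below 3. By cDNA fragmentation Cyp1b1 was called higher in small intestine with start points and with a penalty of 0.1 RPKM.

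In family 4, 2 of 13 members present by cDNA fragmentation and 2 of 9 in the rRNA-depleted libraries were called higher in small intestine, against 2.72% and 3.73% of all genes, and none higher in colon, against 3.2% and 6.59% of all genes, and the median log2 ratio was −0.44 and −0.67. Cyp4v3 (chr8:46391156-46418550, minus strand), a fatty acid hydroxylase, had 356 RPKM in small intestine against 4.60 in colon by cDNA fragmentation (77.5-fold, 69.5 to 86.6), and 303 and 9.42 RPKM in the rRNA-depleted libraries (32.2-fold, 26.2 to 39.9). All of its 11 blocks were higher in small intestine by both protocols. The block ratios ran from 46.1 to 138 by cDNA fragmentation. In the rRNA-depleted libraries they ran from 5.98 to 159 over the 10 blocks with reads in both tissues. Exon blocks of Klkb1 overlap 2 of its blocks.

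Cyp4f14, which inactivates leukotriene B4 (a lipid mediator of inflammation), had 165 and 16.9 RPKM by cDNA fragmentation (9.81-fold, 9.16 to 10.5) and 307 and 43.9 in the rRNA-depleted libraries (6.98-fold, 6.19 to 7.89). Cyp4b1 was less far apart, with 76.6 and 44.9 RPKM by cDNA fragmentation and 76.4 and 50.1 in the rRNA-depleted libraries. Cyp4f16 had 26.5 and 12.0 RPKM, and 16.1 and 8.09. Cyp4f40 had 6.88 and 9.84 RPKM by cDNA fragmentation and 26.8 and 22.0 in the rRNA-depleted libraries, where the interval of its colon ratio (0.619 to 1.10) included 1. The 8 Cyp4a genes, fatty acid hydroxylases of liver and kidney, had at most 8 reads together in any library.

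Of the remaining members of family 2, Cyp2e1, the ethanol-oxidising form, had 10.8 and 45.2 RPKM by cDNA fragmentation (4.20-fold higher in colon, 3.78 to 4.68) and 3.68 and 8.94 RPKM in the rRNA-depleted libraries (2.43-fold, 1.31 to 4.86), which did not pass the rule. The call by cDNA fragmentation ended with start points and with median-of-ratios size factors. Of 5 adipocyte markers 1, Adipoq, was called, higher in colon by cDNA fragmentation. The summed RPKM of the list was 41.8 and 72.9, and 16.7 and 30.2, with Adipoq at 7.76 and 36.9, and at 3.59 and 12.4, and Cidec at 31.9 and 27.4, and at 11.5 and 14.5. By cDNA fragmentation Retn had 1.83 and 7.5 RPKM, Lep 0.300 and 0.953, and Plin1 0.0232 and 0.168, and the median log2 ratio of the list was 1.40, and 0.96 in the rRNA-depleted libraries. Their part in the result was not tested.

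Cyp2f2, known from the club cells of the lung, had 0.171 and 12.1 RPKM by cDNA fragmentation (70.6-fold higher in colon, 34.0 to 176), and 0 and 15 reads in the rRNA-depleted libraries, where it was called with start points and with a penalty of 0.1 RPKM. The arachidonic acid epoxygenase Cyp2j6 had 51.5 and 22.9 RPKM, and 50.6 and 28.7, higher in small intestine in each protocol but under the limit. Cyp2u1 had 2.06 and 0.363 RPKM by cDNA fragmentation, with a ratio of 5.67 that the added 1 RPKM kept from being called, and 19.6 and 1.60 RPKM in the rRNA-depleted libraries (12.2-fold, 6.81 to 23.8). Cyp20a1, an orphan form, had 2.99 and 6.74 RPKM, and 4.26 and 19.3, and was called higher in colon in the rRNA-depleted libraries (4.55-fold, 2.54 to 8.83).

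Among members with endogenous substrates, none of the 7 sterol and bile acid genes, 6 steroid hormone genes, 3 vitamin D genes or 3 retinoic acid genes was called by either protocol, against 2.72% and 3.2% of all genes by cDNA fragmentation and 3.73% and 6.59% in the rRNA-depleted libraries (small intestine and colon), so a count of 0 among so few genes does not set them apart. Other settings called some of them: Cyp27a1 higher in small intestine in the rRNA-depleted libraries with median-of-ratios size factors, Cyp17a1 by cDNA fragmentation with start points, and with a penalty of 0.1 RPKM Cyp17a1 and Cyp7b1 by cDNA fragmentation, Cyp7a1 in the rRNA-depleted libraries, and Cyp21a1 there, the last higher in colon. Cyp27a1, which oxidises the cholesterol side chain, had 19.2 and 10.3 RPKM by cDNA fragmentation and 53.5 and 18.7 in the rRNA-depleted libraries. Cyp51, the lanosterol demethylase of cholesterol synthesis, had 17.4 and 39.2 RPKM by cDNA fragmentation (2.25-fold higher in colon, 2.13 to 2.39) and 19.2 and 22.1 in the rRNA-depleted libraries, where the log2 ratio turned from 0.20 to −0.08 with median-of-ratios size factors. The oxysterol hydroxylase Cyp39a1 had 12.3 and 16.4 RPKM, and 3.70 and 9.98.

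The others lay below 3 RPKM. Cyp7b1 had 1.09 and 0.261 RPKM by cDNA fragmentation, and 2 and 9 reads in the rRNA-depleted libraries. The androgen synthesis gene Cyp17a1 had 45 reads in small intestine and none in colon by cDNA fragmentation (at least 16.5-fold against a limit of 3 reads, with 12.9 as the lower end of the counting interval), and 1 read and none in the rRNA-depleted libraries. Of the 4 markers of steroid-producing cells, Star, the most abundant, had 0.610 and 0.694 RPKM by cDNA fragmentation, and Nr5a1 had at most 2 reads in any library. The vitamin D 25-hydroxylase Cyp2r1 had 0.438 and 0.918 RPKM, and 1.21 and 2.12. Cyp21a1, which shares exon blocks with Tnxa, had 6 and 20 reads, and 1 and 8 reads, and all 9 reads of the rRNA-depleted libraries lay on the strand opposite to the gene.

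**Figure D4:**
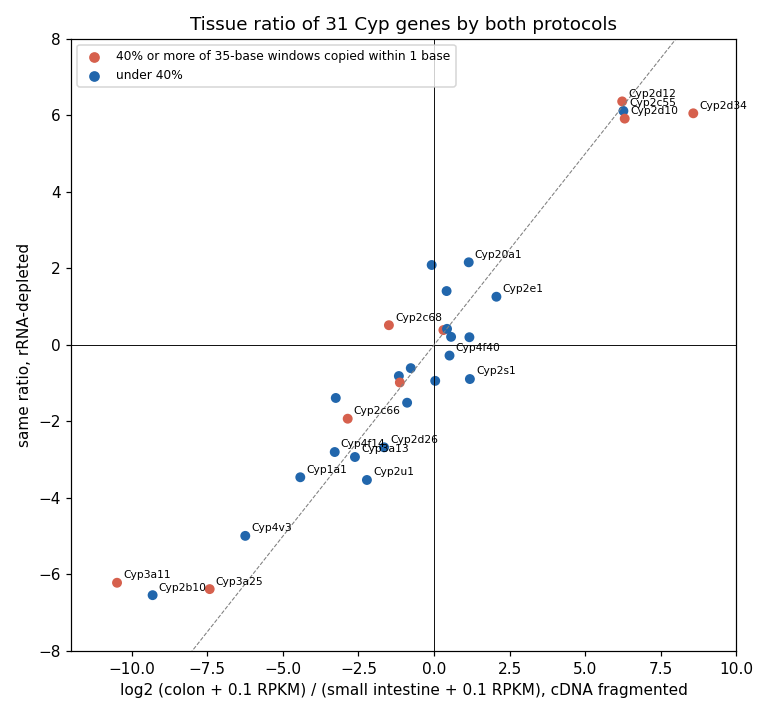
Log2 ratio of colon to small intestine, with 0.1 RPKM added, by cDNA fragmentation (x axis) and in the rRNA-depleted libraries (y axis), with 1 point for each of the 31 members with at least 20 reads in each pair of libraries. Red marks members with at least 40% of windows copied within 1 base, and 26 of the 31 points lie on the same side of 0 in both protocols.

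Of the 31 members with at least 20 reads in each pair of libraries, 26 (83.9%) lay on the same side of 1 in both protocols, and of 11787 genes with as many reads 70.0% did. The rank correlation of the log2 ratios between protocols was 0.89 over the members and 0.53 over the genes, as a description across genes, which are not independent replicates. In the rRNA-depleted libraries reads keep their strand. Of 2374 reads on Cyp3a13 in small intestine and 14034 reads on Cyp2c55 in colon none lay on the opposite strand.

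Genes that supply electrons, haem and regulation to cytochromes P450 were listed beside the members. The list also held the epoxide hydrolases Ephx1 and Ephx2 and the synthases Tbxas1 and Ptgis, themselves P450 enzymes with other symbols. Of these 22 genes, 2 were called higher in small intestine and 1 in colon by cDNA fragmentation, and 4 and 2 in the rRNA-depleted libraries, with a median log2 ratio of −0.03 and −0.25. Of all genes, 2.72% and 3.2% were so called by cDNA fragmentation and 3.73% and 6.59% in the rRNA-depleted libraries. The soluble epoxide hydrolase Ephx2, which converts the epoxides made by Cyp2c and Cyp2j enzymes, had 165 and 15.2 RPKM by cDNA fragmentation (10.9-fold higher in small intestine, 10.1 to 11.7) and 246 and 23.3 in the rRNA-depleted libraries (10.5-fold). Nr1i3 (CAR), the receptor that drives Cyp2b10, had 27.0 and 3.49 RPKM (7.73-fold, 6.26 to 9.63), and 16.1 and 0.994 (16.2-fold).

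Nr1i2 (PXR), which drives Cyp3a11, had 32.0 and 29.5 RPKM by cDNA fragmentation but 57.2 and 11.6 in the rRNA-depleted libraries, where it was called higher in small intestine, as was the cytochrome b5 reductase Cyb5r3 (200 and 45.7 RPKM, 4.38-fold). Higher in colon were the ferredoxin Fdx1 by cDNA fragmentation (7.44 and 28.5 RPKM, 3.83-fold, 3.19 to 4.63) and, in the rRNA-depleted libraries, Fdx1l (5 and 35 reads, 4.10-fold, 1.60 to 13.4) and the prostacyclin synthase Ptgis (2 and 37 reads, 10.8-fold, 2.79 to 92.7). The reductase Por had 12.8 and 28.7 RPKM, and 45.6 and 38.3, and changed its side between protocols. The Ah receptor gene Ahr had 2.13 and 1.48 RPKM, and 6.62 and 7.59, and was not called.

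Near copies limit what unique reads can show. Of the 99 members, 27 had no window of 35 bases that recurs within 1 base elsewhere in the exon reference, and 26 had at least 50% of windows so copied. Cyp3a41a and Cyp3a41b, of 99.9% coding identity, had 100% and 98.5% of windows copied and no read in any library. The copied share was 95.3% for Cyp2c40, 93.4% for Cyp2c68, 74.2% for Cyp3a25, 68.0% for Cyp2d10, 58.1% for Cyp3a11, 57.1% for Cyp2c65, 40.1% for Cyp2d34 and 37.3% for Cyp2b10. It was 1.78% for Cyp2c55, 0.478% for Cyp3a13 and 0 for Cyp4v3 and Cyp2f2.

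Reads on copied windows were few, from 0.678% to 3.81% of the Cyp reads of a library. Counted only over windows without a copy, Cyp3a11 had 568 RPKM in small intestine in place of 228 by cDNA fragmentation, Cyp3a25 had 146 in place of 45.1, and Cyp2d34 had 167 in place of 90.2 in colon. A part of each rise does not come from copies, since a block has fewer window starts than bases. Cyp4v3, without a copied window, had 402 in place of 356 RPKM in small intestine by cDNA fragmentation. The level of a gene thus depended on the windows counted, and more so for these copied genes than for Cyp4v3. The direction of the ratio was the same over windows without a copy for all 28 named members in both protocols. As few reads lay on copied windows, this check kept most Cyp reads and could not show whether near copies alter a direction.

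**Figure D5:**
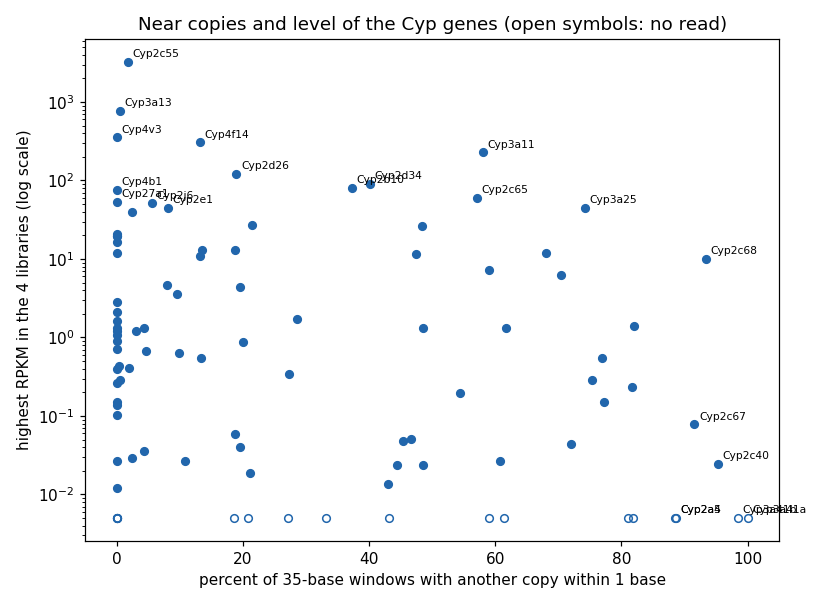
Highest RPKM of each member in the 4 libraries (log axis) against the percent of its 35-base windows that recur within 1 base elsewhere in the exon reference, with open symbols for members without reads. Cyp2c55, Cyp3a13 and Cyp4v3, the members with the highest levels over whole blocks, had under 2% of windows copied, and Cyp3a41a and Cyp3a41b, at 100% and 98.5%, had no read.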

How the data were processed

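Members and gene lists were chosen with earlier results of these data known. Reads of 35 colors from 2 tissues and 2 protocols had been matched by the authors with the Corona software to RefSeq exon blocks of mm9 and to exon-exon junctions, with up to 3 color mismatches, and only unique placements were deposited. The deposited match files hold read positions, and the deposited reports hold counts of reads, which were equal to those counted here. The version of the software is not given in the sources used here, and the study describes polyadenylated RNA for its second protocol where the labels give ribosomal RNA-depleted RNA. Its read totals for that protocol are also larger, so these libraries may not be those it describes.

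A read was given to the block of its start, with 3 bases of tolerance. Each block was given to 1 gene by overlap with GENCODE M1 exons, protein coding genes first and then the most bases. A read on a block shared by genes thus counts for only 1 of them. RPKM was computed per 1000000 uniquely placed reads, junction reads counting in the total only. Intervals were exact Poisson for RPKM and exact Clopper-Pearson for ratios, and a library without reads on a gene was given a limit of 3 reads. Near copies were searched with bwa 0.7.19 and pysam 0.24.0, and the haem stretch in translated coding sequence (biopython 1.88). Calculations used Python 3.11.15, numpy 2.4.6, pandas 2.3.3 and scipy 1.17.1, and figures matplotlib 3.10.9. The call and interval steps were tested on simulated data.

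Named members were the 20 with the highest RPKM in any library, the 5 with the largest ratios per direction and protocol, those of the endogenous substrate lists with at least 20 reads in 1 library, and those called in 1 protocol and on the other side in the other, 28 in all. Alternatives were at most 1 mismatch, start points, median-of-ratios size factors, a penalty of 0.1 RPKM, blocks of 1 gene, at least 20 reads, other limits of presence, the strand, and, chosen after seeing the data, windows without a copy.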

Additional observations from a re-analysis of the deposited data

Results flagged for a closer look

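Cyp2s1, a form known from epithelia, lay on opposite sides in the protocols: the ratio of colon to small intestine was 2.29 by cDNA fragmentation, with 9.08 and 20.8 RPKM, and 0.535 in the rRNA-depleted libraries, with 13.1 and 7.02 RPKM. Counting intervals of these ratios excluded 1 on each side, and the difference between protocols was not tested. The pancreatic acinar markers changed sides in the same way (18.8 and 1052 summed RPKM, and 3079 and 298, with Cela1 making up 291 of the 298), and their part in the result was not tested. Cyp3a44 had a ratio of 0.363 by cDNA fragmentation, from 35 and 14 reads. In the rRNA-depleted libraries it was at least 1.76 against a limit of 3 reads, from 0 and 9 reads, and the lower end of the counting interval lay below that value. This difference was not tested either, and 61.8% of the windows of Cyp3a44 are copied within 1 base.

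Reads on the strand opposite to the gene appeared in the rRNA-depleted libraries, which keep the strand, on members above 3 reads: on Cyp51 with 8 reads in small intestine and 19 in colon, on Cyp2j13 with 14 in colon, on Cyp21a1 with 8 in colon, and on Cyp4f17 and Cyp2j5 with 4 each in small intestine. On the strand of the gene itself lay 94.3% of the reads on Cyp51 and 30% of those on Cyp2j13 in colon. Opposite-strand reads from an overlapping gene cannot be told from reads of the member in the cDNA fragmented libraries, which keep no strand.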

How the results depend on the processing

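No paired analysis was possible because the calls come from no test and the groups, of 1 library each, share only 1 replicate number. A fit over both protocols with the protocol as a block was not run. With a penalty of 0.1 RPKM, 14 in place of 9 members were called higher in small intestine by cDNA fragmentation, and 13 in place of 5 higher in colon in the rRNA-depleted libraries. In the latter, 9 were called with start points in place of reads. With windows without a copy, a setting chosen after seeing the data that also raises levels of genes without copies, 8 were called. As these colon calls rose, the share of small intestine among calls there went from 66.7% to 50% with the smaller penalty (13 small intestine calls in place of 10) and to 52.6% with start points (10 in both). The remaining counts of calls and presence stayed within 1.5 times, but calls were exchanged: with start points by cDNA fragmentation 7 of 9 small intestine calls (without Cyp3a13 and Cyp2d26) and 5 of 7 colon calls (without Cyp2c55 and Cyp2e1) were kept. Size factors ended the call of Cyp2e1 by cDNA fragmentation, at most 1 mismatch those of Cyp2c66 there and of Cyp2c29 in the rRNA-depleted libraries, and a minimum of 20 reads that of Cyp2c29. Cyp27a1 was gained there with size factors and, higher in colon, Cyp3a44 and Cyp2d9 with 3 settings and Cyp2f2 and Cyp2d40 with 2. By cDNA fragmentation Cyp17a1, Cyp1b1, Cyp2c29 and Cyp2u1 were gained, higher in small intestine, with start points and with the smaller penalty. Cyp2c69 was gained by cDNA fragmentation, higher in colon, with the same settings and over windows without a copy. Those windows also gained it in the rRNA-depleted libraries. By start points the log2 ratios of 16 of 28 named members by cDNA fragmentation and of 9 in the rRNA-depleted libraries moved beyond their counting intervals or, for genes with a library at 0, by at least 1. With median-of-ratios size factors 16 by cDNA fragmentation and 7 in the rRNA-depleted libraries moved as far. Of the named members, the log2 ratio changed sign for Cyp2c65 by cDNA fragmentation with size factors (0.31 to −0.05) and in the rRNA-depleted libraries with start points (0.39 to −0.02), for Cyp51 in the rRNA-depleted libraries with both (0.20 to −0.08 and −0.05), and for Cyp21a1 there with blocks of 1 gene (1.87 to −2.33). Depth limits the rRNA-depleted values: 3 reads on a gene of 2000 bases are 0.737 RPKM in small intestine, against 0.0667 by cDNA fragmentation. In the rRNA-depleted library of small intestine, 1 start point held 12.0% of the reads on Cyp3a13 and 13.5% of those on Cyp4v3. By cDNA fragmentation these shares were 0.153% and 0.132% in small intestine. Counting intervals take reads as independent and may be too narrow where reads pile up.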
